A study of Mus musculus with 20 samples.

Results

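DNA methylation was examined across 9 genes of the basic helix-loop-helix (bHLH) family that act in development: Twist1 and Twist2, Hand1 and Hand2, Neurog1 and Neurog3, Neurod1, and Olig1 and Olig2. Each gene window ran from 10 kb upstream of its RefSeq start site to the end of the gene on the mouse build mm10. The windows held 313 of the 1201951 bins of 100 bp in the series, each with a methylation percentage in all 20 samples. The family was chosen by the methylation values of these same samples, above all those of 1 bin upstream of Twist2 selected on its lower levels in 4x and 10x HSCs, so the levels of that bin are given as a description with no test.

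bHLH proteins bind DNA as dimers at the E-box, a short motif written CANNTG, and most tissue-restricted members pair with widely expressed E proteins, while Id proteins block such pairing. Twist1 and Twist2 act in mesoderm and mesenchyme, Hand1 and Hand2 in heart and other mesodermal tissue, Neurog1, Neurog3 and Neurod1 in neurons and in the endocrine pancreas, and Olig1 and Olig2 in oligodendrocytes and motor neurons. Genes of developmental regulators often start in CpG islands, stretches rich in CpG that usually carry little methylation. CpG methylation at promoters and enhancers is one of the marks that go with silencing.

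The cells were hematopoietic stem cells (HSCs) of C57BL/6 mice (C57BL/6 J, aged 3 months when the study began, in its methods), labelled as cell type HSC from blood and, in the study's methods, sorted from bone marrow of females after serial injections of 5-fluorouracil (5-FU), a drug that kills dividing blood cells and forces HSCs to proliferate. The groups had received 0, 2, 4 or 10 cycles of 5-FU and are called 0x (4 samples), 2x (6), 4x (4) and 10x (6). The labels do not say whether each sample came from a separate mouse, so the p-values measure the spread between these samples only. Methylation was measured by reduced representation bisulfite sequencing (RRBS), which cuts DNA at CCGG sites and thus reads mainly CpG-rich DNA.

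Each bin carries a percentage but no read count. How deeply a value was sequenced is therefore unknown, and no counting interval can be given. According to the methods, bins without enough reads in a sample were filled with the average level of the sample's group, and filled values are not marked. In 383225 cases a group of a bin held 1 repeated value beside other values, and in 1.82% of these the repeated value lay within 0.01 points of the plain mean of the others, so whether repeated values are filled ones was not settled. Of all bins, 701483 differed between samples and 84131 varied within every group and repeated no value other than 0 or 100 in a group. Only the 84131 bins entered the tests. Among these bins, the promoters of 5 measured HSC genes (Kit, Gata2, Meis1, Mecom and Cd34) averaged 1.36 to 7.01% over the 20 samples, against 53.5% for the myeloid gene Mpo. The erythroid genes Klf1 and Epor, at 3.19 and 14.8%, were also low.

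Of the 313 bins of the 9 genes, 49 met the same conditions, 187 varied but held repeated values or a constant group, and 77 had 1 value in all 20 samples. Of the 77 constant bins, 43 stood at 0% and 29 at 100%, and the other 5 at a value between. Twist2, the longest of the genes, had 74 bins, of which 27 were constant and 7 met the conditions. Olig1 had a single bin that met them, Neurog3 had 4, Twist1, Hand2 and Neurog1 had 5 each, Neurod1 had 6, Hand1 had 7 and Olig2 had 9. The 48 bins other than the Twist2 upstream bin were tested.

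**Figure D1:**
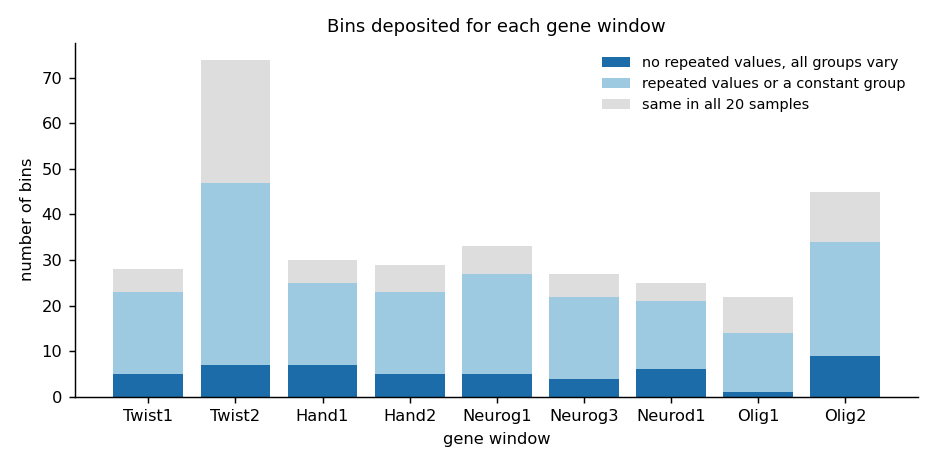
Number of deposited 100-bp bins (y axis) in each of the 9 gene windows (x axis). Dark blue marks the 49 bins with no repeated values in which all groups vary, light blue the 187 with repeated values or a constant group, and grey the 77 that are the same in all 20 samples.

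The following sequences are those of the bins to which the values below return: 3 upstream of Twist2, the Neurog3 bin with the highest difference from 0x, and the Twist1 bin whose 10x and 0x samples did not overlap. They are the plus strand of the RefSeq GRCm38.p6 assembly, the same build as mm10, with CpG sites in capitals. The first 2 adjoin each other and together span chr1:91799700-91799899.
Twist2 at -1711 bp, first 100 bp of that span: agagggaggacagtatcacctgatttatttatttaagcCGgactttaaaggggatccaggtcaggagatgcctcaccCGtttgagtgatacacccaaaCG
Twist2 at -1611 bp, last 100 bp of that span: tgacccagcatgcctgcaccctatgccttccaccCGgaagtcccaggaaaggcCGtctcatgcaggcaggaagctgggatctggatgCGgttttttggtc
Twist2 at -511 bp, chr1:91800900-91800999: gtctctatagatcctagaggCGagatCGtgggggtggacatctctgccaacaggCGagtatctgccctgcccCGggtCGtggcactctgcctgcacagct
Neurog3 at -5440 bp, chr10:62127600-62127699: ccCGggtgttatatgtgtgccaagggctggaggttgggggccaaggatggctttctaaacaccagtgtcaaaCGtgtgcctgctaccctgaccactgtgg
Twist1 at 379 bp, chr12:33958000-33958099: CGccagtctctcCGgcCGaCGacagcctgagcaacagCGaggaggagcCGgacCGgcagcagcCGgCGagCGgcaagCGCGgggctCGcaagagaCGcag

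Distances run from the start site to the centre of the bin and are negative upstream. The first 4 bins lie upstream of their genes with 3, 3, 5 and 2 CpG sites, and the Twist1 bin lies in the coding exon with 14. All 5 hold the RRBS cutting site CCGG, as did 94.8% of the 35908 tested bins on the same chromosomes. The E-box motif CANNTG, whose pattern reads alike on both strands, occurred in 32.4% of those bins and, among the 5, once in the Twist2 bin at -1711 bp and in no other. A match or its absence in such a window is a description only.

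The Twist2 bin at -1611 bp was almost fully methylated in 0x HSCs, with 95.7, 100, 100 and 100%. In 2x HSCs it held 60.5, 56.5, 0, 100, 91.7 and 0%. In 4x HSCs it held 15.4, 4.55, 17.2 and 12.4%, and in 10x HSCs 38.5, 50.7, 52.9, 48.0, 45.5 and 46.7%. The means were 98.9 ± 2.17, 51.4 ± 43.3, 12.4 ± 5.59 and 47.0 ± 4.99% (SD) in 0x, 2x, 4x and 10x. The 4x and 10x samples lay below every 0x sample and did not overlap each other, while the 2x samples spanned the whole range from 0 to 100%. The lowest mean was thus that of 4x and not that of 10x, and the level did not follow the number of cycles in order.

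The bin was chosen for these values and no test is given for them. The 2x, 4x and 10x means differed from that of 0x by -47.5, -86.5 and -51.9 points. The value of 4x replicate 20, 12.36%, lay close to the mean of the other 4x samples, 12.39%, and since filled values are not marked it cannot be told whether it was read or filled.

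The adjacent bin at -1711 bp, which has the same number of CpG sites, did not show this pattern. It held 30.6, 99.4, 14.3 and 0% in 0x, a lowest, median and highest value of 0, 39.8 and 72.2% in 2x, 50, 22.6, 43.6 and 77.8% in 4x, with 0, 26.3 and 43.3% in 10x. The groups overlapped throughout, and the 2x, 4x and 10x means differed from 0x by 4.18 ± 20.9, 12.4 ± 22.5 and -12.6 ± 17.6 points (± SE, adjusted p = 0.998, 0.976 and 0.886 by limma with Benjamini-Hochberg adjustment). The direction depended on single samples, since without 0x replicate 14 the 2x difference was -7.84 points and without 0x replicate 02 the 10x difference was 8.49 points. Across the 20 samples its Pearson correlation with the bin at -1611 bp was 0.23, over points that share their group and library. Nearer to the gene, the bin at -511 bp held 5.96, 14.7, 34.2 and 23.3% in 4x, against 0, 15.5, 1.23 and 0% in 0x. Its 4x mean of 19.5 ± 12.1% and 0x mean of 4.18 ± 7.57% differed by 15.4 ± 6.60 points (± SE, adjusted p = 0.975), opposite in direction to the bin at -1611 bp. Of the 19 deposited bins within 2 kb of the bin at -1611 bp, counted with it, 6 met the conditions for testing.

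**Figure D2:**
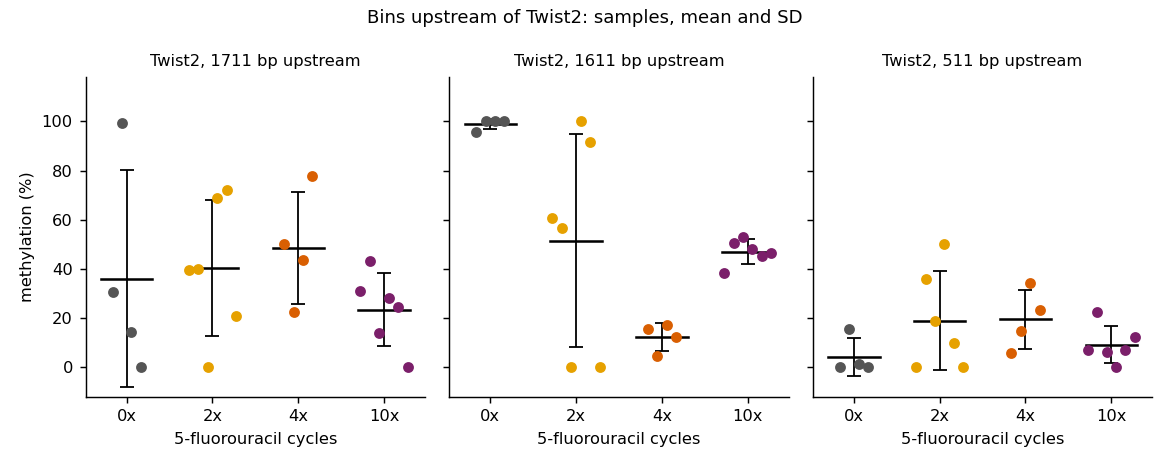
Methylation (y axis, percent) in 0x, 2x, 4x and 10x HSCs (x axis, cycles of 5-FU) of 3 Twist2 bins, at -1711, -1611 and -511 bp from the start site. Points are samples, lines the group mean and bars the SD. In the middle panel the 4 4x samples lie at 4.55 to 17.2% and the 4 0x samples at 95.7 to 100%, whereas in the left panel the groups overlap.

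Over the 48 tested bins of the 9 genes, no bin was called in 2x, 4x or 10x HSCs against 0x. Only bins that varied within every group were tested, so a bin constant in any group could not be called, however large its difference. The Twist2 bin at -1111 bp, constant in 0x and 2x but with no repeated values other than 0, was left out for this reason. The lack of calls thus holds only for bins with spread in each group. A bin was called at an adjusted p under 0.05 with a difference of at least 10 points, and the lowest adjusted p values among the 48 were 0.624, 0.975 and 0.529. Such calls were rare among the 84131 bins tested in the whole series, at 0.00357, 0.00713 and 0.0131% in 2x, 4x and 10x. In the fit over all 701483 bins that vary, which may include filled values, they made up 14, 9.96 and 10.8%. Without adjustment, 2 of the 48 bins had a p under 0.05 in 2x, beside 3.79% of all bins tested, with 2 in 4x (3.69%) and 3 in 10x (6.23%). A slope over the number of cycles, fitted to all 20 samples, was called in 0 of the 48 bins (lowest adjusted p = 0.975) beside 0.00119% of all bins, with 3 that had a p under 0.05 before adjustment beside 3.56% of all bins.

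The median difference over the 48 bins was 0.64, 0.61 and 1.46 points in 2x, 4x and 10x, and over all 84131 bins 0.18, 0.32 and 0.51 points. Higher means than in 0x were found in 26, 26 and 30 of the 48. A difference of 10 points or more was found in 9, 9 and 10 bins, 6, 5 and 6 of them Hand1 bins, while all bins tested exceeded 10 points in 20.8, 18.2 and 17.3% of cases. In each comparison 1 bin had samples that did not overlap with 0x, namely the Hand1 bin at 2497 bp in 2x, the Neurog1 bin at 30 bp in 4x and the Twist1 bin at 379 bp in 10x. Of all bins tested, 0.676, 1.95 and 1.32% did not overlap in these comparisons.

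**Figure D3:**
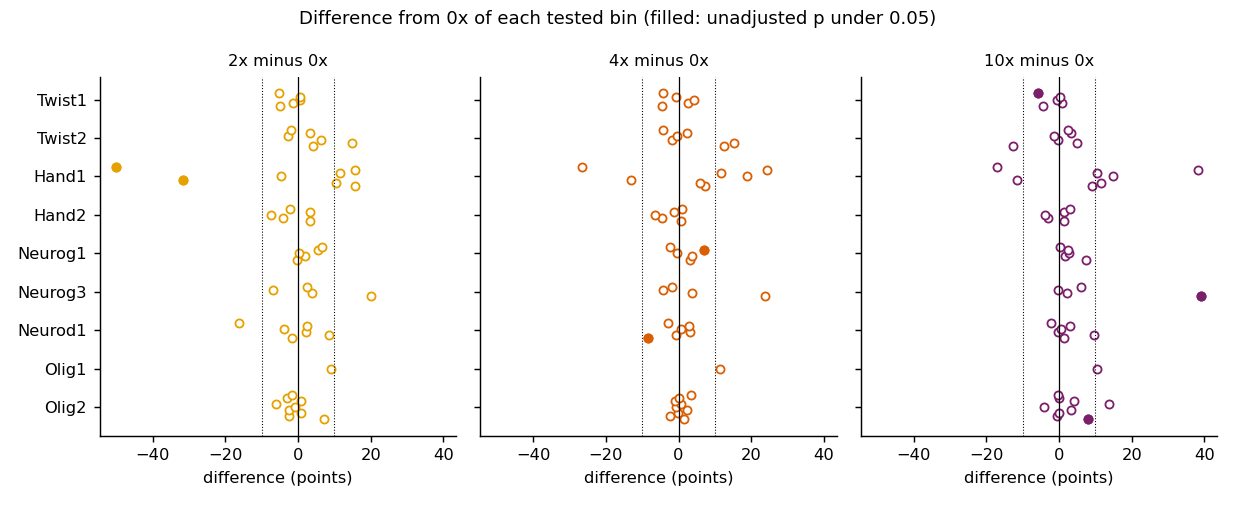
Difference in mean methylation from 0x (x axis, points) of each of the 48 tested bins, by gene (y axis), in 2x, 4x and 10x HSCs. Each circle is a bin, filled where the unadjusted p was under 0.05, and the dotted lines mark 10 points. The widest spread is that of Hand1, and no bin passed after adjustment.

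Twist1 (chr12:33957671-33959831, plus strand), which keeps mesenchymal cells undifferentiated, carried little methylation throughout. Its 5 bins had group means between 0.11 and 10.7%. The bin at 379 bp in the coding exon held 6.67, 6.36, 4.27 and 12.4% in 0x, a lowest, median and highest value of 0, 0 and 12.9% in 2x, 5.13, 6.25, 1.72 and 0% in 4x, with 0, 1.19 and 3.54% in 10x. All 10x samples were thus below all 0x samples, and 2x and 4x samples overlapped with 0x. The 10x and 0x means, 1.51 ± 1.4 and 7.43 ± 3.49% (SD), differed by -5.92 ± 1.74 points (± SE, adjusted p = 0.529), which is the lowest adjusted p among the 48 bins in any comparison. The difference ranged from -6.97 points without 0x replicate 13 to -4.26 points without 0x replicate 14. The neighbouring coding bin at 279 bp, also with 14 CpG sites, averaged 1.04% in 10x and 0.69% in 0x. Upstream, the bin at -1721 bp averaged 3.19% in 10x and 7.49% in 0x and was at 0% in 5 of 6 samples of 2x and 4 of 6 of 10x, but without 0x replicate 01 the 10x difference was -0.85 points.

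Twist2 (chr1:91801461-91848034, plus strand), a close relative of Twist1, was unevenly methylated along its window. The 2 coding bins, at 189 and 289 bp, had group means between 0.66 and 4.25%. The bins at -511 and -411 bp reached group means of 19.5 and 9.38%, in 4x and 2x. In the long intron, the bin at 3689 bp held a single CpG site, with means of 81.9 ± 2.63, 79.8 ± 6.98, 77.6 ± 2.33 and 84.4 ± 4.94% (SD) in 0x, 2x, 4x and 10x. Counting all 62 deposited bins in introns of the 9 genes, most of them of Twist2, the means were 66.6 ± 1.88, 59.8 ± 1.68, 62.6 ± 1.32 and 63.7 ± 1.26% in 0x, 2x, 4x and 10x (SD), values that may include filled ones.

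Hand1 (chr11:57828713-57832147, minus strand), a regulator of the heart and the placenta, was the gene with the most intermediate levels. None of its 7 bins had a 0x mean under 10%, whereas 33 of all 49 bins did, and its 0x means ran from 14 to 67.8%. The coding bin at 2497 bp held 47.0, 100, 40.7 and 31.3% in 0x, a lowest, median and highest value of 0, 2.11 and 16.3% in 2x, 73.7, 39.3, 0 and 0% in 4x, with 30.5, 37.6 and 47.1% in 10x. The 2x samples lay below all 0x samples, the 4x samples were split, and the 10x samples were close together, 5 of 6 of them within the range of 0x and 1 just below it. The 2x and 0x means, 4.62 ± 6.44 and 54.8 ± 30.8% (SD), differed by -50.1 ± 11.8 points (± SE, adjusted p = 0.624), and by -58.0 to -35.1 points when any 1 sample was left out.

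The Hand1 bin at -603 bp was likewise lower in 2x, at 9.20 ± 20.1% against 40.8 ± 19.1% in 0x (SD), a difference of -31.6 ± 11.9 points (± SE, adjusted p = 0.998). One 2x sample stood at 50%, among the 0x samples, and 4 of the other 5 at 0%. The bins at -703 and -803 bp, next to it, went the other way, with 2x means of 37.9 and 54.0% against 27.4 and 38.3% in 0x. The intron bin at 2197 bp, with 2 CpG sites, ran from 0 to 100% within 0x and within 2x. Its means were 32.3, 48.0, 56.7 and 70.6% in 0x, 2x, 4x and 10x, and the 10x difference of 38.4 ± 23.4 points had an adjusted p of 0.853. The bin at 97 bp, in the 5' UTR, had means of 67.8, 63.1, 86.5 and 82.5%.

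Hand2 (chr8:57320983-57324517, plus strand), which acts in heart and limb, was low in all 5 bins, with group means between 0.32 and 11.7%. The 5' UTR bin at 567 bp, with 14 CpG sites, held 8.53, 6.97, 0 and 19.1% in 0x, a lowest, median and highest value of 0, 0 and 7.45% in 2x, 4.45, 1.91, 0 and 2.35% in 4x, with 2.52, 4.40 and 9.38% in 10x. All treated groups had lower means than 0x and overlapped with it, and the 2x difference was -7.35 ± 3.5 points (± SE, adjusted p = 0.998). Without 0x replicate 14, the highest, the 2x, 4x and 10x differences were -3.86, -2.99 and -0.25 points. The bin at -7733 bp held 2.29, 6.19, 23.0 and 7.77% in 0x, and the 2x, 4x and 10x means differed from 0x by -4.13, -4.47 and -3.05 points. These differences rest on 0x replicate 13, and without it they were 0.26, -0.08 and 1.33 points.

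Neurog3 (chr10:62133090-62134763, plus strand), which starts the endocrine programme of the pancreas, had the largest 10x difference of all 48 bins. Its upstream bin at -5440 bp held 90.2, 70.4, 64.1 and 0% in 0x, a lowest, median and highest value of 24.1, 86.5 and 100% in 2x, 56.4, 63.0, 100 and 100% in 4x, with 75.9, 100 and 100% in 10x. The 0x mean rests in large part on 1 sample at 0%, and 1 0x sample lay above the lowest 10x sample. The 10x and 0x means, 95.3 ± 9.63 and 56.2 ± 39.1% (SD), differed by 39.1 ± 15.1 points (± SE, adjusted p = 0.725), and by 20.4 points without that 0x sample, replicate 14. The means followed the number of cycles, at 56.2, 76.2, 79.9 and 95.3%, with a slope of 3.29 ± 1.43 points per cycle (± SE, adjusted p = 0.975). Near the gene its 3 other bins had group means between 2.20 and 14.4%.

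Neurog1 (chr13:56250478-56252180, minus strand), a determinant of sensory neurons, had group means between 0.18 and 13.5% in its 5 bins. The bin at 30 bp held 15.7, 3.95, 6.25 and 8.11% in 4x, against 3.77, 0, 2.53 and 0% in 0x. Every 4x sample exceeded every 0x sample, the closest pair being 3.95 and 3.77%, and the difference was 6.94 ± 2.79 points (± SE, adjusted p = 0.975). The values in 2x ran from 0 to 23.8% and in 10x from 0 to 10.6%. The bin at -7270 bp had means of 1.31, 1.08, 4.40 and 8.65% in 0x, 2x, 4x and 10x, with samples at 0% in each group, and a slope of 0.81 ± 0.31 points per cycle (± SE, adjusted p = 0.975).

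Neurod1 (chr2:79452637-79456636, minus strand), which acts downstream of the neurogenins in neurons and in endocrine cells, had group means between 1.06 and 17.5% in its 6 bins. Its coding bin at 2286 bp held 0, 0, 70.0 and 0% in 0x, so that 1 sample made the mean of 17.5%. The 2x samples ran from 0 to 4.88%, the 4x samples held 18.2, 40, 0 and 0%, and the 10x samples ran from 0 to 56.5%. The bin at -2414 bp was lower in 4x, at 3.81 ± 3.17% against 12.2 ± 5.74% in 0x (SD), by -8.38 ± 3.25 points (± SE, adjusted p = 0.975), and at -2214 bp the mean was 13.9% in 10x and 4.34% in 0x with overlapping samples.

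Olig1 (chr16:91269769-91271939) and Olig2 (chr16:91225550-91228677) lie beside each other on the plus strand of chromosome 16. The single Olig1 bin, at -3519 bp, was highly methylated, with 60, 100, 88.2 and 100% in 0x, a lowest, median and highest value of 82.2, 100 and 100% in 2x, 100, 93.7, 100 and 100% in 4x, with 89.8, 100 and 100% in 10x. The treated samples were within the upper range of 0x, and the differences of 9.07, 11.4 and 10.5 points in 2x, 4x and 10x had adjusted p values of 0.998, 0.975 and 0.859. Without 0x replicate 01, the sample at 60%, they were 0.05, 2.36 and 1.52 points. In contrast, the 9 Olig2 bins had group means between 0.10 and 21.3%, and 8 of them stayed under 20% in each group.

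The 1 Olig2 group mean above 20% was that of 10x in the intron bin at 500 bp, where the samples held 5.11, 17, 8.67 and 0% in 0x, a lowest, median and highest value of 0, 0 and 7.24% in 2x, 4.11, 10.8, 0 and 18.4% in 4x, with 5.22, 14.5 and 48.3% in 10x. The slope was 1.81 ± 0.60 points per cycle (± SE, adjusted p = 0.975), and the groups overlapped. The bin at -3100 bp held a lowest, median and highest value of 2.04, 8.60 and 17% in 10x, against 0, 0, 2.89 and 0.28% in 0x, with a difference of 7.88 ± 2.65 points (± SE, adjusted p = 0.62). The lowest 10x sample was below the highest 0x sample.

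**Figure D4:**
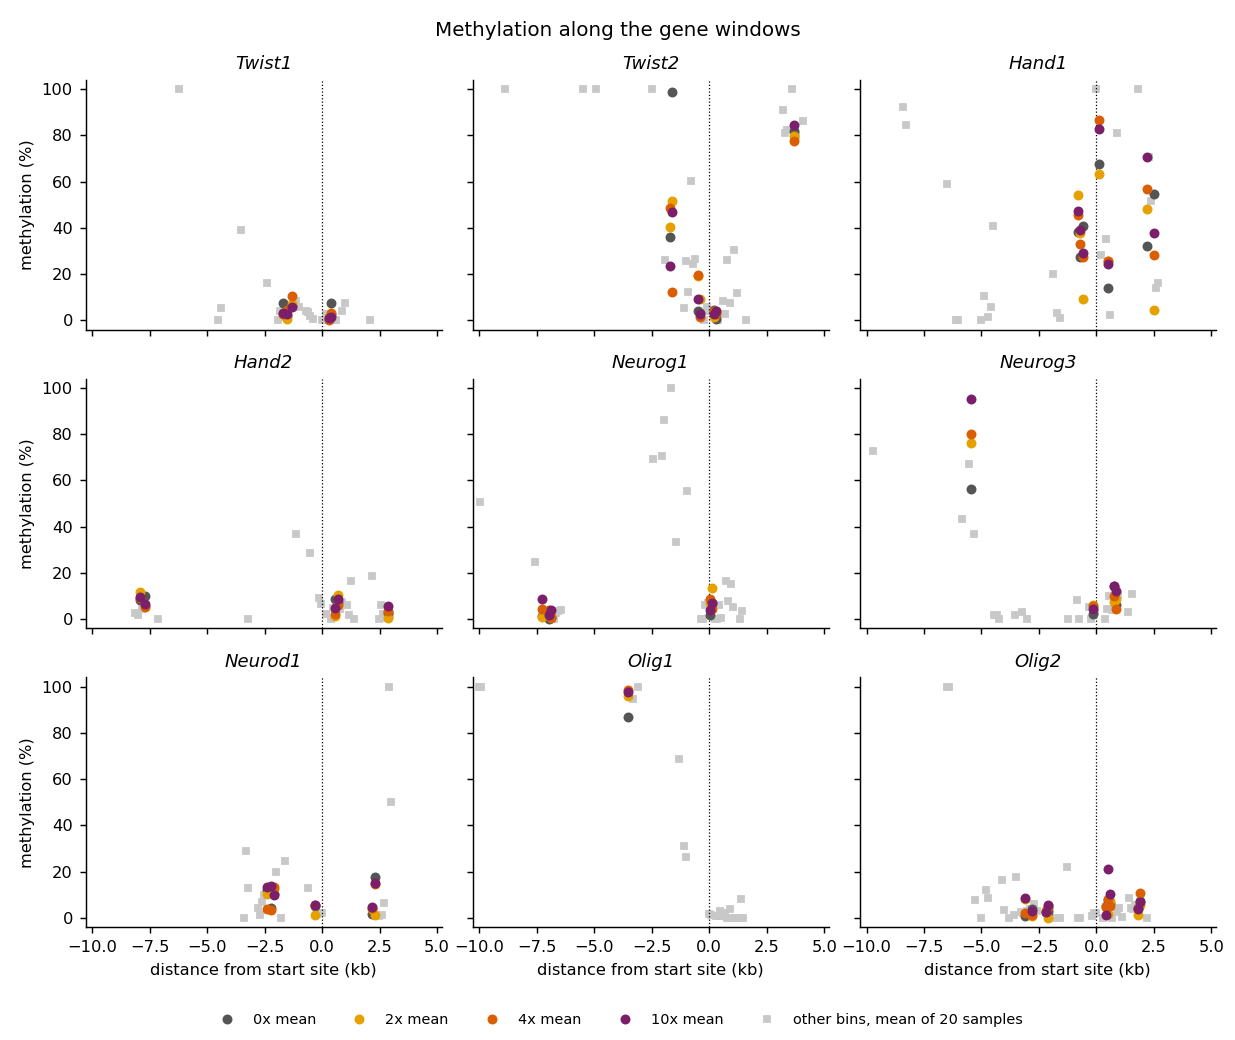
Methylation (y axis, percent) against distance from the start site (x axis, kb) for the 9 genes. Coloured circles are the group means of the 49 bins without repeated values (0x grey, 2x yellow, 4x orange, 10x purple), pale squares the mean over 20 samples of the other bins, and the dotted line the start site. Bins beyond 5 kb inside Twist2 are not drawn. Most bins near the start sites lie under 20% except in Hand1, and the dark grey circle at the top of the Twist2 panel is the 0x mean of the bin at -1611 bp.

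Over the 49 bins, the level went down with the number of CpG sites in the bin, with a Spearman correlation of -0.47 across bins, which are not independent replicates. The median level over all samples was 23.7% in the 12 bins with 3 CpG sites or fewer, 7.04% in the 16 with 4 to 6 and 4.15% in the 21 with 7 or more. By annotation, the 12 coding bins averaged 10.7 ± 3.23, 5.16 ± 5.19, 8.78 ± 4.66 and 10.6 ± 3.08% in 0x, 2x, 4x and 10x (SD over samples). The lower 2x average rests in large part on single bins and carries no test. The Hand1 bin at 2497 bp averaged 54.8% in 0x and 4.62% in 2x. The Neurod1 bin at 2286 bp averaged 17.5 and 1.20%, with 1 0x sample at 70.0% and the others at 0%. The 26 upstream bins averaged 18.2, 18.5, 17.3 and 19.3%. They include the Twist2 upstream bin, which was chosen for its lower levels in 4x and 10x HSCs. That bin alone had means of 98.9, 51.4, 12.4 and 47.0% in 0x, 2x, 4x and 10x. The upstream averages therefore cannot be compared between groups apart from that choice. The mean over the 48 tested bins was 15.3 ± 1.05, 15.3 ± 1.94, 17 ± 0.81 and 18.4 ± 1.35% in 0x, 2x, 4x and 10x (SD), figures that weight a few bins of wide range most and carry no test.

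Averaged over the bins of a window, none of the 9 genes was called at an adjusted p under 0.05 in 2x, 4x or 10x, beside 0, 0 and 0.058% of the 15511 gene windows tested. Before adjustment, 0, 0 and 2 of the 9 had a limma p under 0.05, beside 3.95, 4.24 and 7.48% of all windows. A slope over cycles was called in 0 of the 9, with 3 under 0.05 before adjustment, beside 4.69% of all windows. The lowest adjusted p was that of Neurog3 in 10x, with a window mean of 31.5 ± 2.57% against 19.7 ± 10.3% in 0x (SD), a difference of 11.8 ± 3.97 points (± SE, adjusted p = 0.533). Its 10x samples had a lowest value of 28.0%, and its 0x samples held 28.5, 25.4, 19.8 and 5.21%, so that 1 0x sample overlapped with 10x. Without the lowest 0x sample, replicate 14, the difference was 6.94 points. Hand1 averaged 47.2 ± 8.24% in 10x and 39.3 ± 8.19% in 0x (SD), a difference of 7.89 ± 4.89 points (± SE, adjusted p = 0.758). Olig2 averaged 7.13 ± 1.43% in 10x and 4.49 ± 2.41% in 0x, and Neurog1 5.10 ± 1.98% and 2.19 ± 1.21% (SD, adjusted p = 0.702 and 0.656).

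For Twist2 the window was averaged without the bin at -1611 bp, and the means were 21.7 ± 8.61, 25.6 ± 7.95, 25.6 ± 4.82 and 21.1 ± 3.03% in 0x, 2x, 4x and 10x (SD). With that bin included they were 32.7 ± 7.45, 29.3 ± 12.4, 23.7 ± 4.58 and 24.8 ± 2.78% (SD), so among these bins the 4x mean was lower than that of 0x with the bin at -1611 bp and higher without it. Over the 46 deposited bins that vary, again without that bin, the means were 50.6 ± 2.40, 45.0 ± 1.65, 47.2 ± 2.11 and 46.9 ± 1.32% in 0x, 2x, 4x and 10x (SD), all treated means being lower than that of 0x. Twist1, at 4.76, 2.74, 4.26 and 2.84%, and Hand2, at 7.30, 5.92, 5.17 and 7.14%, had the low levels of their single bins. The median difference over the 9 windows was -0.85, 2.22 and 2.64 points in 2x, 4x and 10x, and over all windows tested 0.21, 0.21 and 0.34 points.

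**Figure D5:**
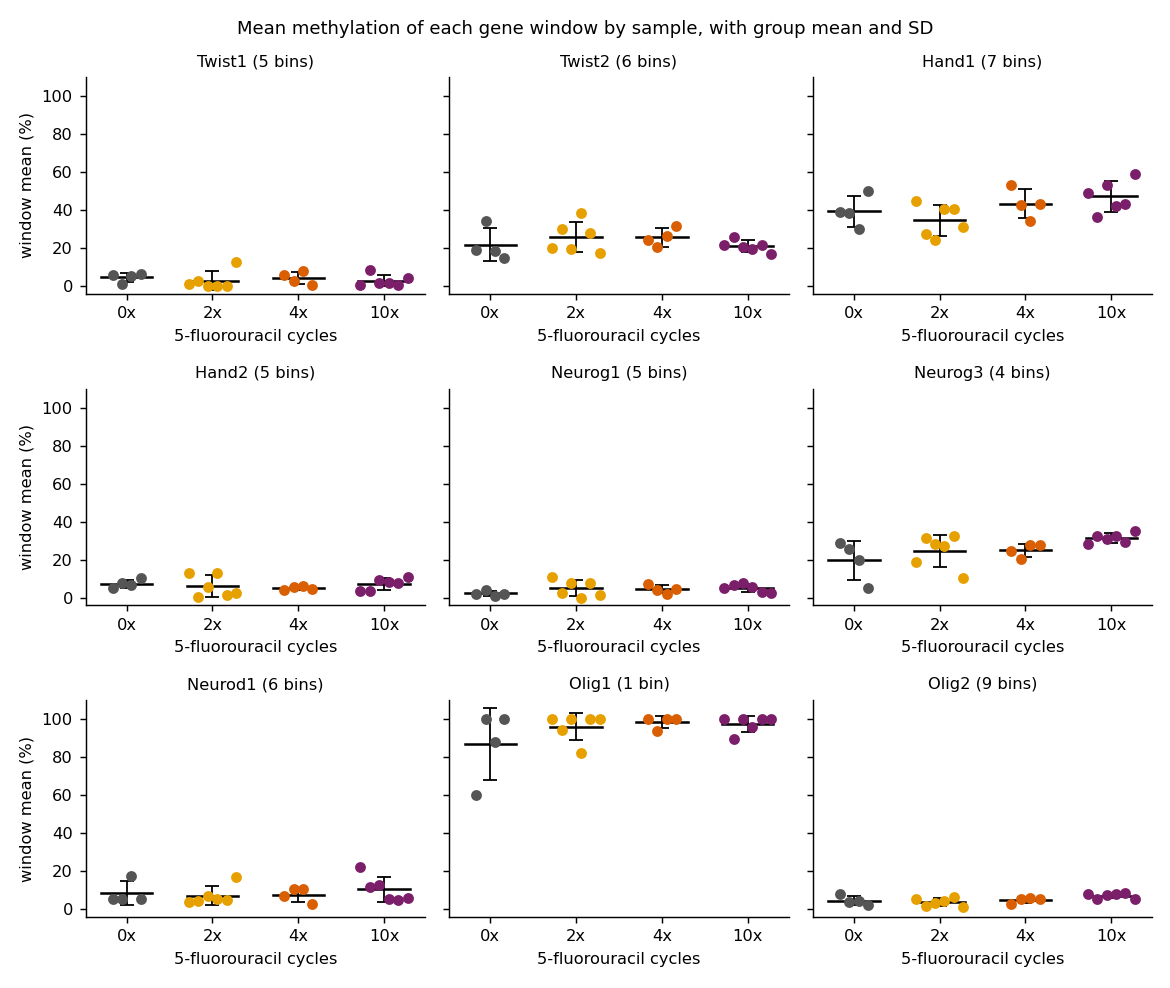
Mean methylation of each gene window (y axis, percent) in 0x, 2x, 4x and 10x HSCs (x axis, cycles of 5-FU), from the tested bins, whose number stands in each title. Points are samples, lines group means and bars the SD. Neurog3 samples lie at 28.0% or more in 10x and at 5.21 to 28.5% in 0x, and the groups of all other genes overlap too.

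Within 1 kb of the start site, 8 of the 9 genes had tested bins, Olig1 being without one. None of the 8 promoters was called, beside 0, 0 and 0.019% of the 10509 promoters tested in 2x, 4x and 10x. Before adjustment, 1, 0 and 1 of the 8 had a limma p under 0.05, beside 3.18, 3.47 and 5.97% of all promoters. A slope over cycles was called in 0 of the 8, with 2 under 0.05 before adjustment, beside 3.67% of all promoters. The median level of all promoters in 0x was 2.99%. The Hand1 promoter averaged 44.5 ± 6.27% in 10x and 37.6 ± 4.75% in 0x (SD), and the other 7 between 1.06 and 11% in any group over their tested bins. The Twist1 promoter had the lowest adjusted p, at 1.27 ± 1.29% in 10x against 4.06 ± 1.95% in 0x (SD), a difference of -2.79 ± 1.07 points (± SE, adjusted p = 0.732). The Twist2 promoter averaged 3.07 ± 2.29, 8.45 ± 7.08, 6.94 ± 2.70 and 4.69 ± 2.20% in 0x, 2x, 4x and 10x (SD), over its 4 tested bins. Over the 16 deposited bins that vary there, the means were 14.2 ± 3.25, 17 ± 3.06, 13.1 ± 0.55 and 12.9 ± 5.49% (SD), with 4x and 10x below 0x.

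The other bHLH genes listed for comparison were 42, among them E proteins and Id inhibitors, blood regulators such as Tal1, muscle regulators, neural genes and other mesodermal genes. Tested bins lay in the windows of 36 and the promoters of 27, and none of them was called in any of the 3 comparisons. The largest differences of window means were those of the muscle regulator Myog, with 98.4% in 10x and 64.3% in 0x from 1 bin, and of Olig3, the third member of the Olig group, with 40.8% in 10x and 13.5% in 0x from 3 bins. They amounted to 34.1 points for Myog (adjusted p = 0.677) and 27.3 points for Olig3 (adjusted p = 0.151). The means of Olig3 were 13.5, 22.5, 27.9 and 40.8% in 0x, 2x, 4x and 10x. The median difference over the 36 windows was 1.15, -0.07 and 0.26 points.

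The 187 bins with repeated values or a constant group are given apart, since their within-group spread may be set in part by the filling and their p-values are then not those of measured replicates. Fitted over all 701483 bins that vary, 28, 16 and 14 of the 187 were called in 2x, 4x and 10x, beside 14, 9.96 and 10.8% of all bins in that fit. Of these calls, 28, 15 and 14 had a constant group or a repeated value in one of the groups compared. Levels below 0x were found in 17 of the 28 calls in 2x, 8 of 16 in 4x and 11 of 14 in 10x. Among all bins in that fit, 46349 of 98470 calls were lower in 2x, 30544 of 69876 in 4x and 27683 of 75831 in 10x. Those lower calls made up 6.61, 4.35 and 3.95% of all bins in the fit. The median difference of the 187 bins was 0 in each comparison.

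Averaged over all bins that vary, 4, 1 and 2 of the 9 windows were called in 2x, 4x and 10x, beside 30.4, 17.4 and 25.3% of all windows in that fit, with 1, 2 and 2 promoters beside 18.8, 10.9 and 12.3%. The Hand2 promoter was called in all 3 comparisons. Over its 9 bins that vary it averaged 21.1 ± 1.82, 4.21 ± 2.55, 7.76 ± 3.19 and 4.59 ± 1.49% in 0x, 2x, 4x and 10x (SD), with differences of -16.9 ± 1.44, -13.3 ± 1.75 and -16.5 ± 1.02 points (± SE, limma adjusted p = 2.4e-05, 0.0027 and 2.8e-06). Over its 2 tested bins alone the differences were -1.99, -3.90 and -1.12 points. Of the 9 bins, those at -533 and -133 bp held 1 value in all 0x samples, 100 and 45.4%, and 1 value in all 2x samples, 0%.

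Several of these bins held 1 value throughout a group. The Hand2 bin at -533 bp stood at 100% in all 4 0x samples and at 0% in all 6 2x samples, with 50, 0, 29.8 and 50% in 4x and values up to 25% in 10x. The Twist2 intron bin at 789 bp likewise stood at 100% in 0x and at 0% in 2x, with up to 35.3% in 4x and up to 31.8% in 10x. Both thus had every treated sample below every 0x sample, with repeated values in 4x and 10x as well. They were picked for the size of their difference from 0x, so this separation follows in part from the choice. The share of all bins that vary without such overlap was not counted. The Olig1 bin at -1119 bp was constant in each group, at 0, 37.7, 100 and 0% in 0x, 2x, 4x and 10x. The Neurog1 bin at -9970 bp held 100, 82.5, 50 and 82.5% in 0x and was constant in the treated groups, at 0, 100 and 50% in 2x, 4x and 10x.

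Of the other genes, the bins of this kind with the largest difference had values of both kinds. The Hand1 coding bin at 397 bp held 0 to 6.06% in 10x, against 80.6, 67.7, 80.6 and 100% in 0x. The Olig2 bin at -4800 bp held no more than 0.93% in any treated sample, against 0, 100, 70.6 and 70.6% in 0x. The Twist1 bin at -3521 bp held 75.0, 75.0, 100 and 50% in 4x, against 12.5, 0, 9.09 and 9.09% in 0x. In the Neurod1 bin at -3314 bp the mean was 12.8% in 10x and 55.2% in 0x. The Neurog3 bin at -5540 bp, beside the tested bin at -5440 bp, had means of 37.3, 92.6, 62.9 and 63.7% in 0x, 2x, 4x and 10x, and the 94.2% found in 3 of its 2x samples is a repeated value.

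Outside the 9 genes, the tested bins whose values over the 20 samples were most like those of the Twist2 bin at -1611 bp were sought by Pearson correlation. The 5 highest were 0.82 for a bin near H1f0, 0.78 for one whose nearest gene was 1700010I14Rik, 0.77 for one in Plce1, 0.76 for one near Ltbp4 and 0.72 for one in Gbp3. The bin near H1f0, at chr15:79025400-79025499, had means of 79.8, 35.9, 21.3 and 56.3% in 0x, 2x, 4x and 10x, and the one near Ltbp4, at chr7:27339800-27339899, 72.9, 24.0, 18.9 and 34.5%. All 5 had their highest mean in 0x and their lowest in 4x. They were picked as the highest of 84131 bins tested, and the correlations are a description over samples that share groups and libraries.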

How the data were processed

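HSC DNA of 20 samples was assayed by RRBS. Per the labels and the study's methods, the authors used Trim Galore 0.4.3 for trimming, Bismark 0.23.1 for alignment against mm10 and methylKit 1.22.0. In the methods, the extractor of Bismark gave the methylation of each CpG, and methylKit served to find loci that differ between groups. They deposited the percent methylation of 100 bp bins without read numbers. Bins short of reads in a sample were filled with the group's average, and filled values are unmarked, so values that repeat within a group may understate the spread. The depth per sample is unknown.

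The tests used bins in which each group varied and no value other than 0 or 100 occurred more than once in a group. Each treated group was compared with 0x by limma 3.58.1 (R 4.3.3) on percentages, and a slope over cycles was fitted to all samples, with Benjamini-Hochberg adjustment over all bins, gene windows (10 kb upstream to gene end) or promoters (1 kb either side of the start). Bins were called at an adjusted p under 0.05 with at least 10 points, windows and promoters at an adjusted p under 0.05. The scripts were tested on simulated data. Genes, bin annotation and sequences came from RefSeq on GRCm38.p6.

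The genes, gene lists and alternatives were chosen with earlier results of these data known. Named were all 9 genes and, in each, every called bin and otherwise the 2 with the largest difference from 0x, the bins near the Twist2 bin, the 1 largest of the remaining bins per gene, and the other bHLH genes called or otherwise the 2 with the largest difference. Other bins named were chosen after their values were seen. Alternatives were other sets of bins, a log2 odds scale, other window sizes and thresholds, all groups in 1 fit, a variance trend, the label numbers (01 to 12 or 13 to 34) as a block and leaving out each sample.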

Additional observations from a re-analysis of the deposited data

Results flagged for a closer look

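Single samples far from the rest of their group were looked for in 136 groups of 4 or 6 samples, of the bins, windows and promoters described above, by the gap to the nearest sample over the whole range. Of these, 23 (16.9%) passed the 95% limit of Dixon's ratio, of which chance alone would flag about 1 in 20, and many of the groups hold several samples at 0 or 100%, which makes the ratio large. They fell into 0x (8), 2x (8), 4x (3) and 10x (4).

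In 0x, the high samples were replicate 13 in the Neurod1 bin at 2286 bp (70.0%, the others 0%) and in the Neurod1 window (17.7%, the others 5.31 to 5.42%), replicate 02 in the Neurod1 bin at -2214 bp (16.5%) and the Twist2 bin at -511 bp (15.5%), replicate 01 in the Neurog1 bin at -7270 bp (5.25%), replicate 13 in the Olig2 bin at -3100 bp (2.89%) and replicate 14 in the Twist1 promoter (6.95%). Replicate 01 was the low one in the Twist2 bin at -1611 bp (95.7%, the others 100%).

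In 2x, the high samples were replicate 15 in the Hand2 bin at 567 bp (7.45%), replicate 17 in the Neurog1 bin at -7270 bp (6.49%), replicate 04 in the Twist1 bin at 379 bp (12.9%), replicate 18 in the Twist1 bin at -1721 bp (15.8%), the Twist1 window (12.7%) and the Neurod1 window (16.8%), and replicate 16 in the Hand2 promoter (26.2%, the others 0 to 6.46%). Replicate 16 was low in the Olig1 bin at -3519 bp (82.2%).

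In 4x, replicate 19 was high in the Hand2 bin at -7733 bp (9.13%) and replicate 06 in the Olig2 bin at -3100 bp (9.23%), while replicate 06 was low in the Olig1 bin at -3519 bp (93.7%). In 10x, replicate 12 was high in the Twist1 bin at -1721 bp (14.2%) and the Twist2 promoter (8.83%) and replicate 34 in the Hand2 promoter (16.5%, the others 3.84 to 6.43%), and replicate 11 was low in the Neurog3 bin at -5440 bp (75.9%, the others 95.8 to 100%).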

How the results depend on the processing

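No bin, window or promoter of the 9 genes was called in the reported fits, and leaving out each sample in turn gave 0 calls throughout. The same held for a slope over cycles, for bins in which at least 3 groups vary, the log2 odds scale, all 4 groups in 1 fit, the label numbers as a block, a variance trend, other window and promoter sizes and other minimum differences. Calls appeared when the 187 bins with repeated values or a constant group came in. Over all deposited bins that vary, 29, 16 and 14 bins were called in 2x, 4x and 10x and 9 with a slope, 4, 1 and 2 windows, and 1, 2 and 2 promoters. With repeated values set to missing, 5, 3 and 2 bins, 2, 2 and 1 windows, and 2, 1 and 1 promoters were called. Among them in 2x were the Hand2 bin at -533 bp and the Twist2 bin at 789 bp, constant at 100% in 0x and at 0% in 2x. The bins called in 2x, 4x or 10x were all among the 187 given apart, which the larger sets add, except the Hand1 bin at 2497 bp. Its 2x difference from 0x was -50.1 points in both fits. The limma adjusted p was 0.0189 over all deposited bins that vary and 0.624 as reported. Whether the 9 bins called with a slope were among the 187 was not recorded. The Twist2 window in 2x against 0x changed direction, at -5.58 points (adjusted p = 0.00861) over all deposited bins that vary against 3.95 points as reported. Of 1942 values of 102 single differences under an alternative, 165 uncalled ones changed sign. The unknown depth and the unmarked filling limit all values, most of all those from bins with 1 to 3 CpG sites. No paired analysis was made, since the labels give no pairing of samples between the groups.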
